A study of Homo sapiens with 6 samples.

Results

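The genes described here encode the nuclear subunits of oxidative phosphorylation, the 5 protein complexes of the inner mitochondrial membrane that turn electrons from nutrients into ATP, together with cytochrome c. They were chosen by gene symbol alone (the NDUFA, NDUFB, NDUFC, NDUFS and NDUFV series, SDHA to SDHD, UQCR, CYC1, CYCS, COX4 to COX8 and ATP5), and 83 of the 18404 genes measured by a row with 1 symbol met that rule. Of these 83 members, 34 belong to complex I by name, 3 to complex II, 9 to complex III, 17 to complex IV and 19 to complex V, and 1 encodes cytochrome c. The symbols also brought in 3 genes that encode no protein: NDUFV1-DT, an RNA gene beside NDUFV1, and the pseudogenes UQCRBP1 and ATP5F1EP2. RefSeq (GRCh38.p14) lists 89 protein-coding symbols under the rule. Of these, 80 were measured, and 9 were not analysed here as members, among them NDUFS5, NDUFC2 and ATP5F1E, whose rows carry several symbols.

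The cells were BE(2)-C, an established human neuroblastoma line with an amplified MYCN gene. One group of 3 samples received 5 µM BIX01294 for 24 h, and the other group of 3 received the solvent DMSO at 0.05% for 24 h. BIX01294 blocks EHMT2 and its partner EHMT1, enzymes that methylate lysine on histone H3 and are linked to gene silencing. All samples came from this 1 cell line in medium with dialyzed serum. No DMSO content is recorded for the BIX01294 samples. Total RNA of each sample was measured on 1 Affymetrix array, so every value is a log2 expression value per array and n = 3 per group.

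Electrons from NADH enter at complex I and those from succinate at complex II. They pass through ubiquinone to complex III, by cytochrome c to complex IV and there to oxygen, and the proton gradient built on the way drives ATP synthesis in complex V. Most subunits come from nuclear genes. A few core subunits come from the mitochondrial genome, and those were not analysed here. Transcription of many nuclear subunit genes is linked to the factors NRF1 and GABP, to the estrogen-related receptors and to the coactivator PGC-1alpha, encoded by PPARGC1A.

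The arrays had medians of 6.94 to 7.01. The markers of the labelled cell type were present: the 7 measured of 8 adrenergic neuroblastoma genes, among them MYCN, TH and DBH, had means over the 6 arrays of 9.49 to 13.5, each above the median of all genes (7.53). Their summed level, as log2 of the sum, was 14.53 to 14.58 in DMSO and 14.50 to 14.55 in BIX01294. The summed level of all 6 mesenchymal markers was 10.89 to 10.98 in DMSO and 11.53 to 11.63 in BIX01294. Such a sum is weighted to the brightest gene, whose mean level was 10.81, against a median level of 7.05 for the 6. The median log2 change of these 6 genes was 0.03. In the adrenergic list, ISL1 rose and GATA3 and PHOX2A fell. GATA3 lost its call without BIX01294 replicate 3 or either of DMSO replicates 1 and 2, and PHOX2A with any array left out but BIX01294 replicate 2, so that 0 to 2 of the list fell with an array left out. Of the mesenchymal genes, VIM and CD44 rose, none fell, 4 did not pass, and FN1 and PRRX1 lay in the lower quartile of all genes. Their part in the results below was not tested. In bulk RNA, fewer cells of a type and less RNA per cell cannot be told apart.

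Most transcripts of the respiratory chain and ATP synthase differed little between BIX01294 and DMSO. Of the 83 members, 3 rose, 8 fell and 72 did not pass the threshold, which was 0.05 for the p of limma adjusted over all genes. That is 13.3% of the members, where 23.6% of all genes passed. By direction, 12.9% of all genes were higher and 10.7% lower. The members' median log2 change was -0.02 and their median absolute change 0.08, against -0.01 and 0.11 over all genes. At an unadjusted p under 0.05 there were 11 members higher and 12 lower (27.7%), against 34.9% of all genes (3437 higher and 2979 lower). A change under 0.2 in size on the log2 scale was measured for 72 members (86.7%), and for 72.2% of all genes. For 81 of the 83, the 95% interval of the change lay within 0.5 on either side of 0, as it did for 86.8% of all genes. The exceptions were COX8C, whose interval reached -1.08, and CYCS, whose interval reached 0.51.

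The share of members that passed varied with the fit, from 7.23% to 27.4%, leaving aside a fit that required a minimum change of 0.5. It was below the share of all genes in each of the 21 alternatives run. With an intensity trend in the variance model, 22 members passed, 10 higher and 12 lower (26.5% against 28.9% of all genes), and these included all 11 of the fit reported here. With genes below the median level left out, 10 rose and 10 fell (27.4% against 51.6%). Leaving out any single array gave 1 or 2 members higher and 5 to 7 lower. The count of rises was 1 in each case but that without BIX01294 replicate 3, and the count of falls was 5 in all cases but those without BIX01294 replicate 1 (7) and DMSO replicate 2 (6).

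**Figure D1:**
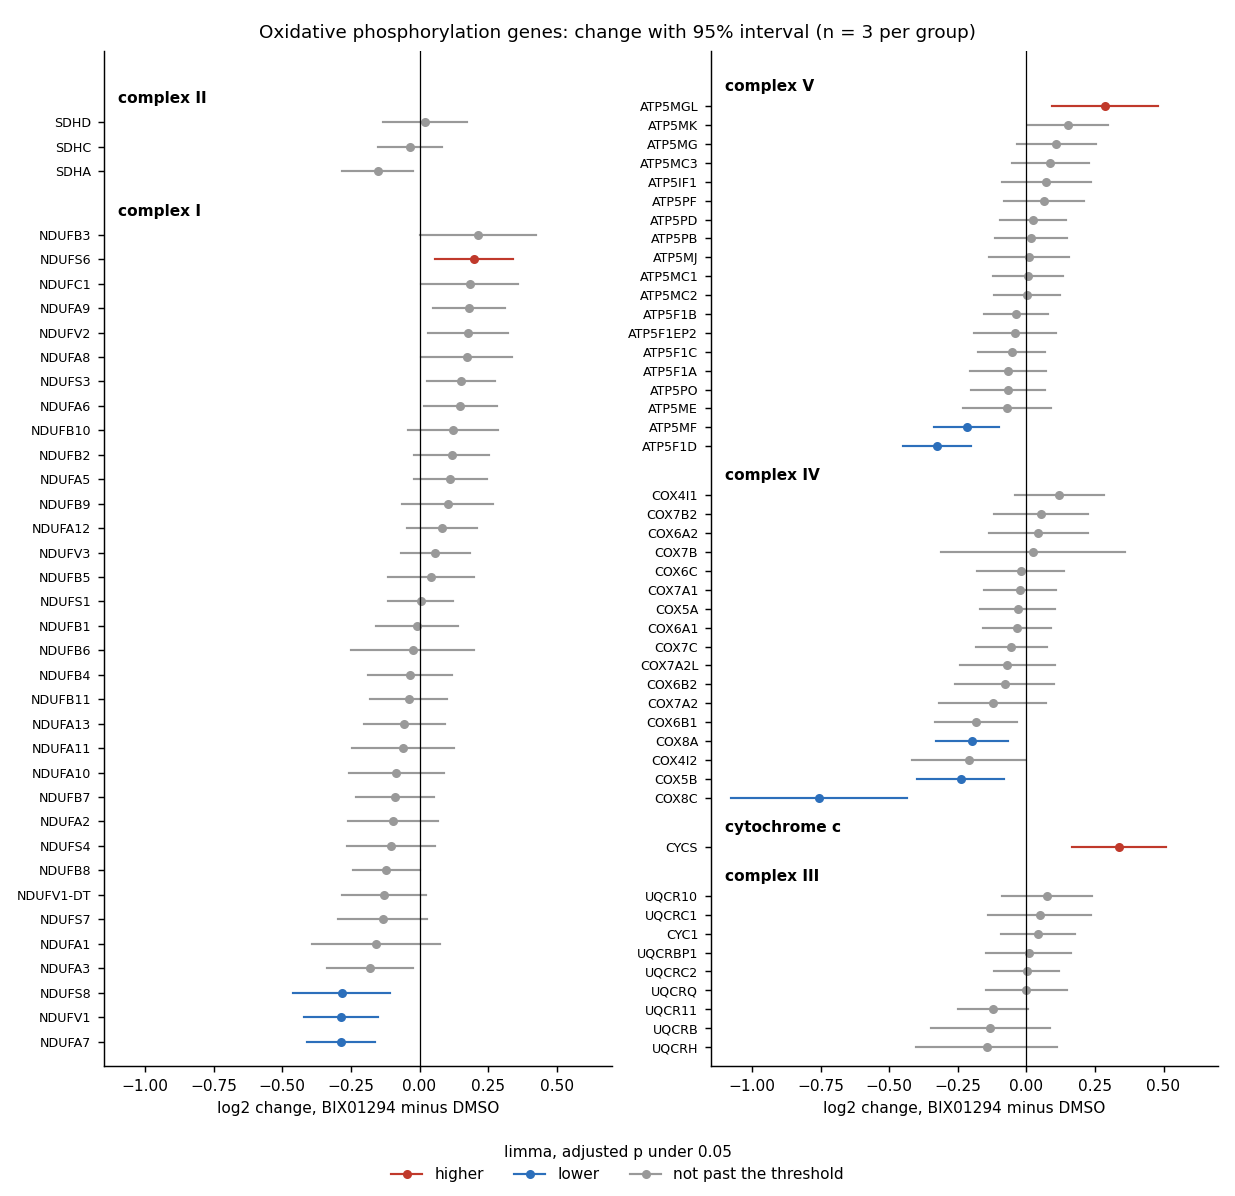
Change of each of the 83 members, by complex. The horizontal axis is the log2 change, BIX01294 minus DMSO, each point is 1 gene, lines are 95% intervals from limma (n = 3 per group), and colour marks the 3 members that rose and the 8 that fell. Most intervals cross 0, and COX8C lies apart from the rest at -0.76.

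Complex I, the entry point of NADH, had 34 members, of which 1 rose and 3 fell (11.8%, against 23.6% of all genes). NDUFV1, the core subunit that holds the flavin where NADH is oxidised, measured 11.01, 11.03 and 10.94 in the DMSO arrays and 10.75, 10.74 and 10.64 in the BIX01294 arrays. The groups did not overlap. NDUFV1 was 1.22-fold lower, a log2 change of -0.29 ± 0.058 (SE; adjusted p 0.00938 in limma). NDUFS8, a core subunit that carries iron-sulfur clusters, measured 9.60, 9.59 and 9.77 in DMSO and 9.45, 9.41 and 9.25 in BIX01294. Every BIX01294 array was below every DMSO array, and DMSO replicate 3 was the highest. Its log2 change was -0.28 ± 0.077 (SE; adjusted p 0.0309 in limma), and the call was lost with any single array left out other than BIX01294 replicate 1 and DMSO replicate 2 (adjusted p 0.0398 to 0.104 over the arrays left out).

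NDUFA7, an accessory subunit of complex I, measured 10.98, 11.05 and 11.07 in DMSO and 10.77, 10.75 and 10.71 in BIX01294. The spread within each group was small beside the gap between them, and the groups did not overlap. NDUFA7 fell by 0.29 on the log2 scale (SE 0.054; adjusted p 0.00698 in limma). NDUFS6, a zinc-binding accessory subunit, was the only member of complex I that rose. It measured 8.94, 9.00 and 8.85 in DMSO and 9.16, 9.07 and 9.17 in BIX01294, with every BIX01294 array above every DMSO array. Its log2 change of 0.20 ± 0.061 (SE) had an adjusted p of 0.0495 in limma, just inside the threshold, and leaving out any of the 6 arrays lost the call (adjusted p 0.0551 to 0.148).

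The other members of complex I lay on both sides of 0. In all, 16 members had a change above 0 and 18 below, with a median of -0.02. Of the 7 core subunits of the nuclear genome, 6 were measured: NDUFV1 and NDUFS8 fell, and NDUFV2 (0.18), NDUFS3 (0.15), NDUFS1 (0.00) and NDUFS7 (-0.13) did not pass. NDUFV2 and NDUFV1 are neighbours in the NADH-oxidising arm of the enzyme, and their changes had opposite signs. NDUFV2 measured 10.34, 10.40 and 10.29 in DMSO and 10.59, 10.55 and 10.43 in BIX01294, with no overlap and an adjusted p of 0.0845 in limma. Its row lies, by row number, among 20 neighbours that are all on chromosome 19, while the gene is on chromosome 18, and a dimmer row among chromosome 18 genes differed by 0.34 ± 0.16 (SE; adjusted p 0.171 in limma). Both rows differed in the same direction and neither passed.

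Among the 27 protein-coding accessory subunits of complex I, 1 rose and 1 fell (7.41%, against 23.6% of all genes). The changes ran from -0.29 to 0.21. NDUFA9 came closest to the threshold from outside, at 0.18 with an adjusted p of 0.0542 in limma. It measured 11.47, 11.45 and 11.41 in DMSO and 11.70, 11.57 and 11.61 in BIX01294, so that the groups did not overlap. NDUFA6, NDUFA8, NDUFC1, NDUFA5 and NDUFB2 also had all BIX01294 arrays above all DMSO arrays, with changes of 0.15, 0.17, 0.18, 0.11 and 0.12, and none passed. NDUFA3 (-0.18) and NDUFB8 (-0.12) had all BIX01294 arrays below. In complex I as a whole, the groups did not overlap in 9 members that were higher and 5 that were lower. Over all 83 members this was so for 13 higher and 13 lower, or 31.3% together, where 21.4% of all genes did not overlap upward, 18.7% downward and 40.1% together.

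The remaining accessory subunits of complex I overlapped between the groups. NDUFB3 (0.21), NDUFB10, NDUFB9, NDUFA12, NDUFV3 and NDUFB5 had changes above 0. NDUFA1 (-0.16), NDUFS4, NDUFA2, NDUFB7, NDUFA10, NDUFA11, NDUFA13, NDUFB11, NDUFB4, NDUFB6 and NDUFB1 had changes below 0. The RNA gene NDUFV1-DT lay in the lower quartile of all genes and differed by -0.13 ± 0.066 (SE; adjusted p 0.211 in limma). The counts within complex I moved with the variance model and with the filter on dim genes. With an intensity trend 7 of its 34 members were higher and 5 lower, where 28.9% of all genes passed. With genes below the median level left out 8 of the 33 that remained were higher and 4 lower, where 51.6% of the genes tested passed.

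Complex II, succinate dehydrogenase, ties the citrate cycle to the respiratory chain, and none of its 3 measured members passed the test in limma. At an unadjusted p under 0.05 there was 1, SDHA, the flavin-binding subunit that oxidises succinate. SDHA measured 11.15, 11.12 and 11.05 in DMSO and 10.91, 11.00 and 10.95 in BIX01294. The groups did not overlap, and the change was -0.15 ± 0.057 (SE; adjusted p 0.0916 in limma). The membrane anchors SDHC and SDHD differed by -0.04 and 0.02. Their brightest rows lie among rows of chromosomes 17 and 1, while the genes are on chromosomes 1 and 11. The dimmer rows, which lie among genes of their own chromosomes, differed by 0.03 and 0.15 and did not pass.

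Complex III, which passes electrons from ubiquinol to cytochrome c, had the narrowest range of the 4 complexes with over 3 members: its 9 changes ran from -0.14 to 0.08. None passed in limma, and none had an unadjusted p under 0.05. UQCRH, the hinge subunit, had the largest difference, at -0.14 ± 0.11 (SE; adjusted p 0.420 in limma). It measured 8.10, 7.96 and 7.84 in DMSO and 8.07, 7.67 and 7.73 in BIX01294, and the groups overlapped. The large core proteins UQCRC1 and UQCRC2 differed by 0.05 and 0.00, and the electron-carrying cytochrome CYC1 by 0.04. UQCR10 differed by 0.08, UQCRQ by 0.00, UQCRB by -0.13 and the pseudogene UQCRBP1 by 0.01. UQCR11, a small subunit, had all BIX01294 arrays below all DMSO arrays at -0.12 and did not pass (adjusted p 0.165 in limma).

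CYCS, the gene of cytochrome c, was the member with the largest rise. Cytochrome c is the soluble carrier between complexes III and IV, and it also triggers caspase activation when it leaves the mitochondrion. CYCS measured 9.40, 9.44 and 9.32 in DMSO and 9.86, 9.62 and 9.68 in BIX01294. All BIX01294 arrays were above all DMSO arrays, with BIX01294 replicate 1 the highest. CYCS rose 1.26-fold, a log2 change of 0.34 ± 0.075 (SE; adjusted p 0.0134 in limma), and kept its call whichever array was left out (adjusted p 0.0147 to 0.0444).

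**Figure D2:**
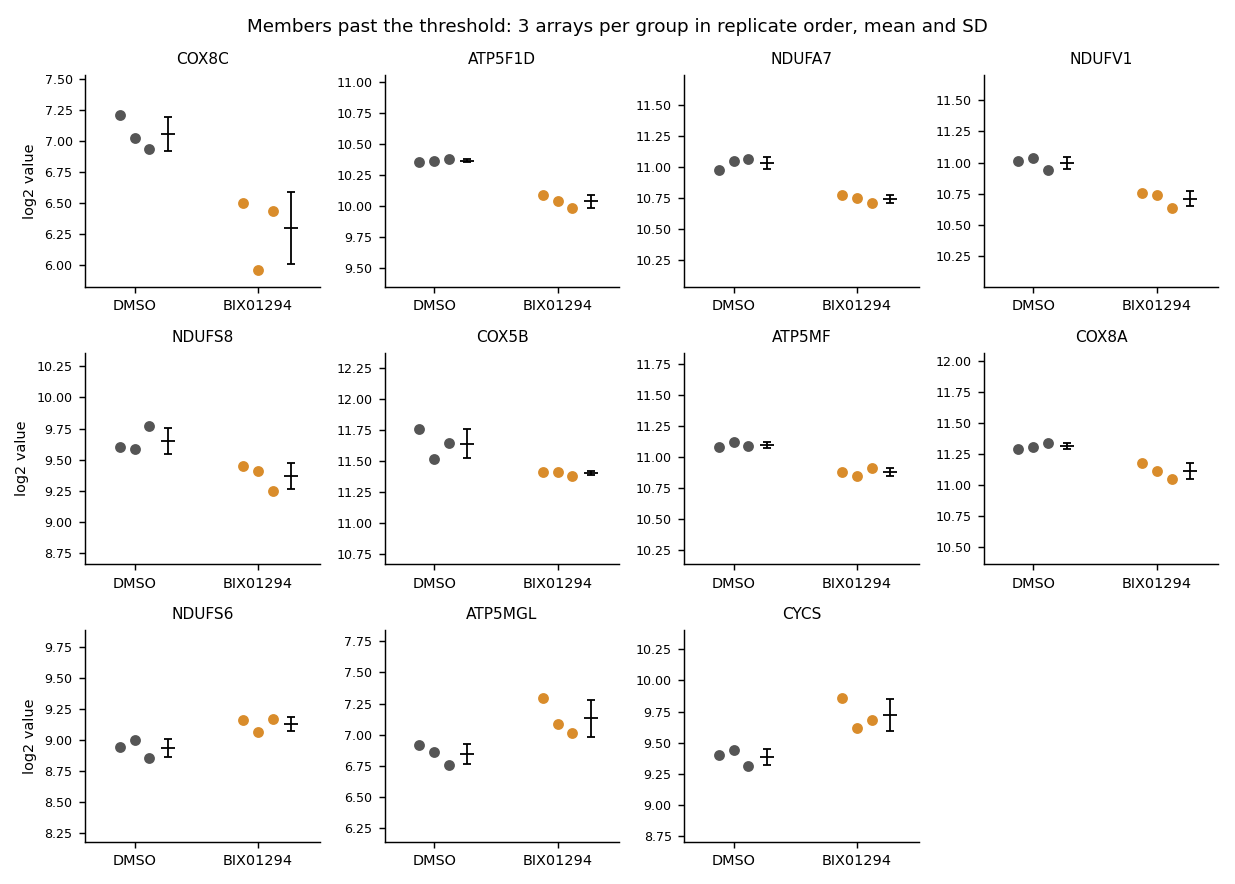
The 11 members past the threshold, with the log2 value of each array on the vertical axis (every panel spans the same width of log2 units) and the group below. Points are the 3 arrays of a group in replicate order, and bars are the mean with the SD. In all 11 panels the groups do not overlap, and the gap is widest for COX8C.

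Complex IV, cytochrome c oxidase, hands electrons to oxygen. Of its 17 members, 3 fell and none rose in limma (17.6% called, against 23.6% of all genes, 10.7% of them lower). Changes below 0 were measured for 13 of the 17 and for 9505 of the 18404 genes, with a median of -0.06 in complex IV. At an unadjusted p under 0.05, 5 complex IV members were lower and 0 higher, or 29.4%, below the 34.9% of all genes. COX8C, which is known as a testis isoform of the small subunit COX8, had the largest change of all members. It measured 7.21, 7.03 and 6.94 in DMSO and 6.50, 5.97 and 6.44 in BIX01294. The groups did not overlap, and BIX01294 replicate 2 was the lowest. COX8C fell by 0.76 on the log2 scale (SE 0.14; adjusted p 0.00601 in limma), or 1.69-fold. Without BIX01294 replicate 2 it fell by 0.59, and it kept its call whichever array was left out. Its mean level of 6.68 is below the median of all genes, and no detection call was available, so it was not shown to be above background.

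COX8A, the subunit made in most tissues, also fell. It measured 11.30, 11.31 and 11.34 in DMSO and 11.18, 11.12 and 11.05 in BIX01294, with no overlap. The change was -0.20 ± 0.057 (SE; adjusted p 0.0368 in limma), and it lost its call without any 1 of the arrays other than BIX01294 replicate 1 (adjusted p 0.0413 to 0.122). COX5B, a zinc-binding peripheral subunit, measured 11.76, 11.52 and 11.64 in DMSO and 11.41, 11.41 and 11.38 in BIX01294. The BIX01294 arrays were tightly grouped below the lowest DMSO array. Its change of -0.24 ± 0.069 (SE; adjusted p 0.0386 in limma) lost its call without any 1 of the arrays other than DMSO replicate 2 (adjusted p 0.0233 to 0.121).

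COX5B and COX8A are the members past the threshold whose promoters held the letters CCGGAAG, the core bound by ETS factors such as GABP, within the 250 bases before the start of the gene. These promoters are shown because a subunit of GABP rose, as given below, and any link to that rise was not tested. They are on the plus strand of GRCh38.p14, from RefSeq, COX5B at chr2:97645812-97646061 and COX8A at chr11:63974370-63974619. Capitals mark the motif on either strand.
COX5B: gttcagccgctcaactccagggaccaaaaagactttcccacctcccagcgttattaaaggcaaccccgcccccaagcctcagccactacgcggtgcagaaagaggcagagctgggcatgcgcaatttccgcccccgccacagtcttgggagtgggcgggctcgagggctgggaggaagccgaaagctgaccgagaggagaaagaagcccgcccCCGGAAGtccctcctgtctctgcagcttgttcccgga
COX8A: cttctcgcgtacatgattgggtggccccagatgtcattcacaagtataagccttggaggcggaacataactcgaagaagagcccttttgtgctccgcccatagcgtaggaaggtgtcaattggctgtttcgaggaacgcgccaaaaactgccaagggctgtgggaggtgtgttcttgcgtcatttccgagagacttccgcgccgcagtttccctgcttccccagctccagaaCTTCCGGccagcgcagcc
The motif lies 37 to 31 bases before the start in COX5B and, on the other strand, 18 to 12 bases before it in COX8A.

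Across the members, 68 of 83 matched a promoter in the RefSeq table, and CCGGAAG was found on either strand in 17 of those 68, against 14.3% of the 14230 genes with a promoter. The NRF1 core motif was found in 14 members (20.6% against 9.11%), AAGGTCA, the element of estrogen-related receptors, in 6 (8.82% against 3.68%), and AAGATGGC, bound by YY1, in 1 (1.47% against 1.84%). Besides COX5B and COX8A, COX8C was the only changed member with any of these motifs, an NRF1 core, and 8 of the 11 changed members had a promoter to search. Of those 8, 2 held CCGGAAG, beside 17 of the 68. The median change was -0.06 in members with CCGGAAG and 0.00 in those without. The corresponding medians were -0.06 and 0.00 for the NRF1 core and -0.05 and -0.005 for AAGGTCA. For AAGATGGC they were 0.06, in 1 member, and -0.03. These differences were not tested. The spread between arrays in the median change of all members was 0.063. That spread covers shifts shared by the members and is no measure of a difference between members with and without a motif. CCGGAAG ends in the letters AAG with which AAGGTCA and AAGATGGC begin, so that matches can overlap, and a match describes the sequence without showing that a factor binds there.

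The other members of complex IV did not pass the test. COX6B1 (-0.18) had no overlap between the groups and an adjusted p of 0.0766 in limma. COX4I1, the common form of subunit 4, differed by 0.12, and COX4I2, the form linked to lung and low oxygen, by -0.21; the test of each missed the threshold (adjusted p 0.277 and 0.137 in limma). COX7B had the widest spread, with 10.10 in BIX01294 replicate 1 against 9.54 in both other BIX01294 arrays and 9.74, 9.78 and 9.58 in DMSO. Its change was 0.02 ± 0.15 (SE). COX6A1 differed by -0.03 in its brightest row and 0.02 in the other, which lies among rows of chromosome 6 while the gene is on chromosome 12. COX5A differed by -0.03, COX6C by -0.02, COX7C by -0.06, COX7A2 by -0.12 and the supercomplex factor COX7A2L by -0.07. COX6A2 and COX7A1, the muscle forms, differed by 0.04 and -0.02, and the testis forms COX6B2 and COX7B2 by -0.08 and 0.05. COX6B2, COX7A1 and COX7B2 lay in the lower quartile of all genes.

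Complex V, the ATP synthase, had 19 members, of which 1 rose and 2 fell, with a median of 0.01. That is 15.8%, against 23.6% of all genes. ATP5F1D encodes the delta subunit of the central stalk, which links the rotor to the catalytic head. It measured 10.36, 10.36 and 10.38 in DMSO and 10.09, 10.04 and 9.99 in BIX01294. The DMSO arrays lay within a narrow band, and all BIX01294 arrays were below it. ATP5F1D was 1.25-fold lower, a log2 change of -0.33 ± 0.053 (SE), and had the lowest adjusted p of the members (0.00350 in limma; 0.00845 to 0.0183 with an array left out).

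The other measured subunits of the F1 part, which holds the catalytic head and the stalk, did not pass. ATP5F1A and ATP5F1B, which form the catalytic ring, differed by -0.07 and -0.04, and ATP5F1C, the gamma subunit of the stalk, by -0.05. All 4 measured changes of the F1 part were below 0, and 1 of the 4 passed. Changes below 0 were measured for 9505 of the 18404 genes. ATP5MF, the membrane subunit f, measured 11.08, 11.12 and 11.09 in DMSO and 10.88, 10.85 and 10.91 in BIX01294. The groups did not overlap, and the change was -0.22 ± 0.051 (SE; adjusted p 0.0174 in limma). It lost its call without DMSO replicate 2 or BIX01294 replicate 2 (adjusted p 0.0343 to 0.0672).

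ATP5MGL, a gene similar to that of the membrane subunit g, rose from 6.92, 6.86 and 6.76 in DMSO to 7.30, 7.09 and 7.01 in BIX01294. Every BIX01294 array was above every DMSO array. The change was 0.29 ± 0.084 (SE; adjusted p 0.0416 in limma), and the call was lost without any 1 of the arrays other than BIX01294 replicate 3 (adjusted p 0.0393 to 0.118). ATP5MGL is dim, with a mean below the median of all genes. The gene of subunit g itself, ATP5MG, differed by 0.11 with no overlap and did not pass (adjusted p 0.265 in limma).

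The other genes of the ATP synthase overlapped between the groups, apart from ATP5MK. ATP5MC1, ATP5MC2 and ATP5MC3, which encode the same mature ring subunit c, differed by 0.01, 0.00 and 0.09. The stator genes ATP5PB, ATP5PD, ATP5PF and ATP5PO differed by 0.02, 0.02, 0.06 and -0.07, and the inhibitory factor ATP5IF1 by 0.07. ATP5MJ differed by 0.01, ATP5ME by -0.07 and the pseudogene ATP5F1EP2 by -0.04. ATP5MK differed by 0.15 in its brightest row, which lies among rows of chromosome X while the gene is on chromosome 10. Its other row, among chromosome 10 genes, differed by 0.08, and neither passed.

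The members also differed among arrays of the same group, and for most of them the same array stood out. The median deviation of the 83 members from their own DMSO means was 0.02, 0.02 and -0.03 in the DMSO arrays and 0.05, -0.04 and -0.05 in the BIX01294 arrays. BIX01294 replicate 1 was the highest of the 3 BIX01294 arrays for 63 of the 83 members (75.9%), and for 30.8% of all genes. DMSO replicate 3 was the lowest of the DMSO arrays for 55 members (66.3%), and for 45.5% of all genes. In complex III, BIX01294 replicate 1 stood at 0.09 while replicates 2 and 3 stood at -0.03 each. Complex IV was the only complex besides II in which all 3 BIX01294 medians were below 0, at -0.01, -0.07 and -0.13. Its median change was -0.08 without BIX01294 replicate 1 and -0.01 without BIX01294 replicate 3. The median change of all members was -0.05 without BIX01294 replicate 1 and 0.01 without BIX01294 replicate 3.

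**Figure D3:**
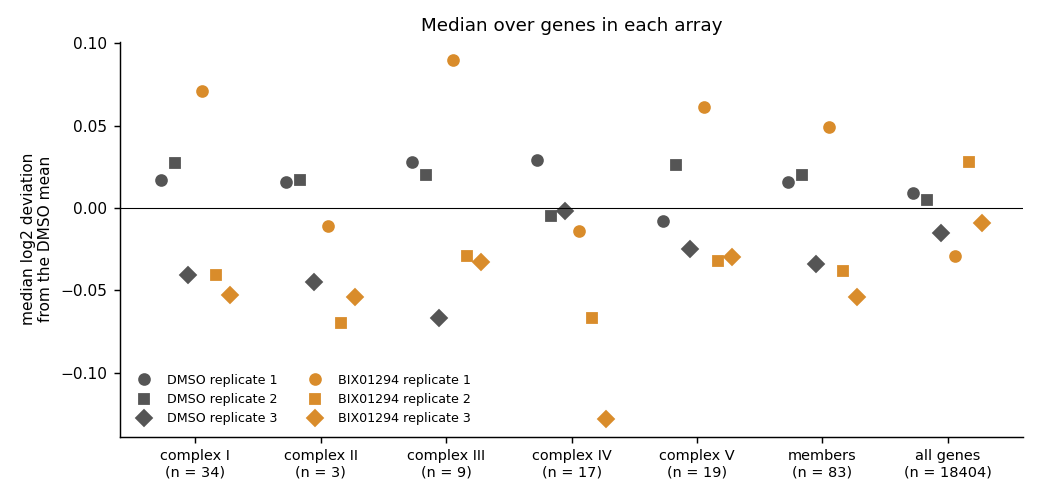
Median over genes, in each array, of the log2 deviation from the gene's DMSO mean, on the vertical axis, for 5 complexes, all members and all genes on the horizontal axis. Shape marks the replicate and colour the group; BIX01294 replicate 1 stands above the other 2 BIX01294 arrays for every complex but not for all genes.

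Assembly factors build the complexes without being part of them. Of 58 listed, 50 were measured, 12 rose and 3 fell (30.0%), with a median of 0.08, beside the subunits' 13.3% and the 23.6% of all genes. With genes below the median level left out, 17 of the 46 factors that remained rose and 8 fell, where 51.6% of the genes tested passed. The difference between the lists was not tested. Leaving out any single array gave 9 to 11 rises and 1 to 4 falls, with 2 falls without BIX01294 replicate 1, 4 without DMSO replicate 3 and 1 in the other 4 cases. Of 17 factors of complex I, 4 rose and 1 fell (29.4%, against 23.6% of all genes). The fall, of TMEM186 (-0.32), held only without DMSO replicate 3 or without BIX01294 replicate 1. NDUFAF4 measured 11.47, 11.46 and 11.43 in DMSO and 12.04, 11.91 and 11.92 in BIX01294. All BIX01294 arrays were well above the DMSO arrays, a rise of 0.50 ± 0.057 (SE; adjusted p 0.000682 in limma). NDUFAF5 rose by 0.44 and NDUFAF1 by 0.40.

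Of 20 complex IV factors, 6 rose and 2 fell, among them COA6 (0.42), which takes part in copper delivery, COA3 (0.39) and COX14 (-0.34), both of which act on the synthesis of the mitochondrially encoded subunit COX1. COA3 and COX14 changed in opposite directions. Their calls held whichever array was left out, and 3 complex IV factors fell without DMSO replicate 3 while 1 fell without any other array. In complexes II and III, 1 of 9 rose (11.1%, against 23.6% of all genes). It was BCS1L (0.26), whose call held only without DMSO replicate 1 or without BIX01294 replicate 3. In complex V, 1 of 4 rose (TMEM70, 0.35).

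Regulators of mitochondrial biogenesis and of mitochondrial DNA expression rose in 6 of 19 cases and fell in none (31.6% called, against 23.6% of all genes, 12.9% of them higher), with a median of 0.12. PPARGC1A measured 9.03, 8.90 and 8.79 in DMSO and 9.35, 9.53 and 9.51 in BIX01294, with no overlap. It rose 1.48-fold, a log2 change of 0.56 ± 0.079 (SE; adjusted p 0.00179 in limma). GABPB1, the non-DNA-binding subunit of GABP, rose by 0.54 and the related coactivator PPRC1 by 0.38. GABPA, the DNA-binding subunit, differed by -0.12, NRF1 by 0.12, ESRRA by -0.07 and the mitochondrial transcription factor TFAM by 0.18, and none of these 4 passed. With an array left out, 4 to 6 rose, with 4 without BIX01294 replicate 1, BIX01294 replicate 3 or DMSO replicate 1, and 1 fell without DMSO replicate 3. At an unadjusted p under 0.05, 9 of the 19 were higher and 1 lower in limma, where 34.9% of all genes passed in either direction. All 19 lay above the median level of all genes. With genes below that median left out, 9 rose and 1 fell, where 51.6% of the genes tested passed.

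Of 16 genes of pyruvate dehydrogenase and the citrate cycle, 4 rose and none fell, a share of 25% that is close to the 23.6% of all genes. All 16 lay above the median level of all genes. With genes below that median left out, 6 rose and 1 fell, where 51.6% of the genes tested passed. IDH3A, which makes NADH in the cycle, rose by 0.44, OGDH by 0.40 and SUCLA2 by 0.22. With an array left out, 3 rose without replicate 2 of either group and 2 in the other 4 cases, in each of which SUCLA2 lost its call. Of 10 carriers, porins and uncoupling proteins, 2 rose, VDAC3 by 0.23 and SLC25A4 by 0.20, a share below the 23.6% of all genes, and 1 rose with any single array left out. Of 9 genes for other routes into the ubiquinone pool, 1 rose (11.1%), the glycerol phosphate dehydrogenase GPD2 (0.48), which lost its call without any 1 of the BIX01294 arrays. No gene fell in these 3 lists in the limma fit over all genes. At an unadjusted p under 0.05 in that fit, 6 were higher and 1 lower in the citrate cycle list. The carrier list had 3 and 0 and the ubiquinone list 1 and 1, against 34.9% of all genes in either direction.

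**Figure D4:**
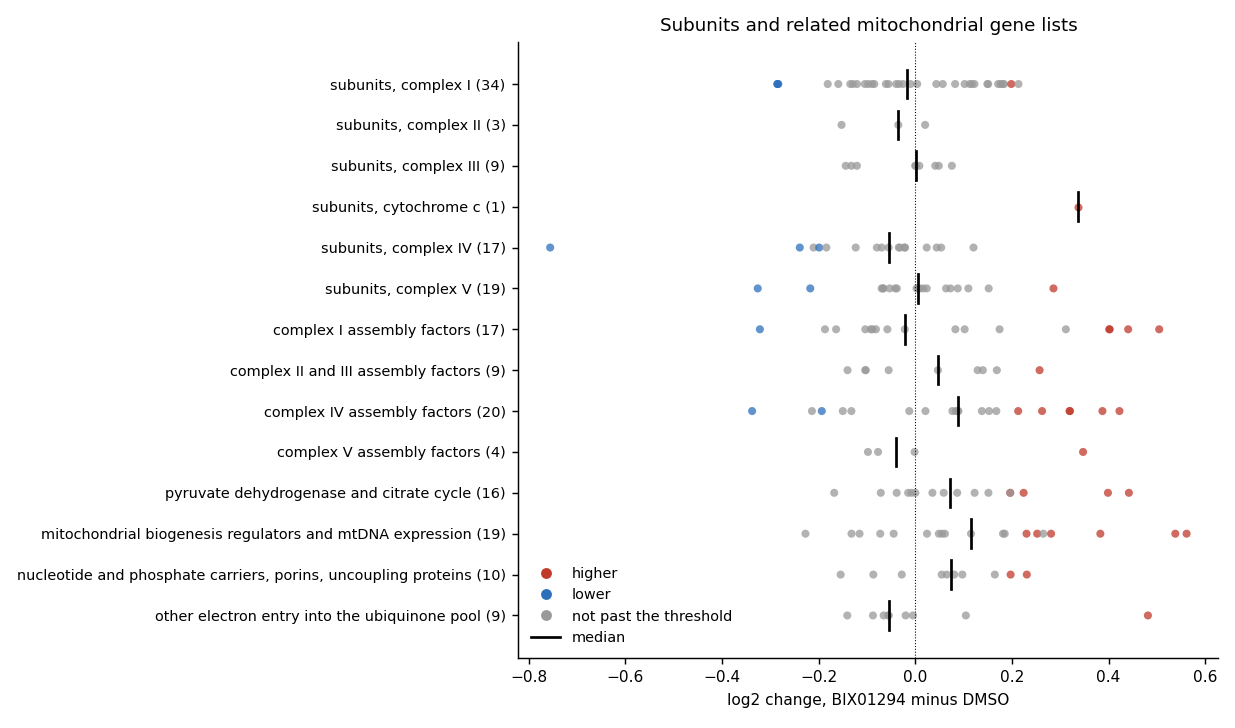
Log2 change, BIX01294 minus DMSO, on the horizontal axis for each subunit by complex and for each measured gene of the 8 related lists, with the number of genes in brackets. Points are genes, coloured where they passed an adjusted p of 0.05 in limma, and black bars are medians; the subunit medians other than that of CYCS lie between -0.06 and 0.01.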

How the data were processed

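Total RNA of 6 samples was hybridised to 1 Affymetrix array each. The authors deposited log2 values, already summarized to 1 value for each row of each array; the scale was read from the range of the values. Partek is the only tool named in the submitters' processing notes; the sources used here do not give the background correction, summarization or normalization.

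Of 32321 rows, 19158 had 1 gene symbol; 19128 of these were named through RefSeq (GRCh38.p14). The brightest row per gene was kept. The 18404 genes were tested with limma 3.58.1 in R 4.3.3 (treatment as the only term, eBayes, two-sided, Benjamini-Hochberg adjustment, threshold 0.05), after the fit was tested on simulated data. The changes planted in those data were larger in size than that of any member but COX8C, so smaller changes were not covered. Arrays differed by a median of 0.083 to 0.116 within groups. The series' text calls the samples independent; p-values measure the spread between them.

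The members, lists and rules were chosen with earlier results of these data known. All members past the threshold are described with every array's value, the largest difference where a complex had none, and up to 3 genes per related list past it; the other members are given by their change, or by direction in complex I; TFAM, NRF1, GABPA, ESRRA, VIM, CD44, ISL1, GATA3 and PHOX2A were named from their lists besides. Alternatives were other scalings, filters, rows, variance models, a replicate block, a minimum change and leaving out each array. Rows near a gene were taken as the 20 nearest single-symbol rows by number.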

Additional observations from a re-analysis of the deposited data

How the results depend on the processing

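The precision is set by 3 arrays per group. The median change of the members stayed between -0.05 and 0.01 over 20 alternatives, moving by less than the spread between arrays. The members higher and lower (3 and 8) became 3 and 13 with quantile normalization and 4 and 5 with centring on array medians, 5 and 9 without the lower quartile of genes, 10 and 10 without genes below the median, and 10 and 12 with an intensity trend. With a minimum change of 0.5 (limma's treat) 0 and 0 passed, with 0 at an unadjusted p under 0.05, and 145 of all genes did, against 4349. With the replicate block, 2 rose and 5 fell. Deviations of same-numbered arrays correlated at 0.193, -0.176 and 0.054, which does not settle whether the replicate numbers pair the samples. With an array left out, 1 to 2 members rose and 5 to 7 fell, and 3018 to 3663 of all genes passed. NDUFA7, NDUFV1, CYCS, COX8C and ATP5F1D passed under each alternative that included them, treat aside, and no call changed sign. Alternatives chosen after seeing the data (rows on a gene's own chromosome, protein-coding members, members above the lower quartile) left the counts at 3 and 8, and adding 8 genes with an older matching alias gave 4 and 9; the 2 additions were EMC8 (higher) and CCNI, a cyclin (lower), which do not encode subunits.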

Other observations

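Rows that carry a subunit's symbol together with other symbols were tested in a limma fit over all 32321 rows. None of the 9 such rows passed an adjusted p of 0.05, and 1 had an unadjusted p under 0.05. That row, shared by SDHA and its pseudogenes, measured 10.64, 10.56 and 10.54 in DMSO and 10.37, 10.45 and 10.34 in BIX01294 (adjusted p 0.0814 in limma), and SDHA's own row also differed downward. The rows that include NDUFS5, NDUFC2 and ATP5F1E differed by -0.05, 0.08 and -0.05.

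COXFA4 and COXFA4L2, formerly NDUFA4 and NDUFA4L2, are assigned to complex IV, but their present names do not match the symbol rule. Neither is among the 83 members or in the counts of complex IV given above. COXFA4 measured 9.38, 9.49 and 9.31 in DMSO and 9.44, 9.22 and 9.22 in BIX01294, a change of -0.10 ± 0.079 (SE; adjusted p 0.442 in limma). COXFA4L2 differed by -0.14 ± 0.059 (SE; adjusted p 0.125 in limma).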
